A study of Mus musculus with 6 samples.

Results

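Glycine tRNAs are the transfer RNAs that bring glycine to the ribosome. They were taken as every row of the count tables whose name began with tRNA-Gly-, which gave 32 of 16310 rows and 32 of the 471 tRNA rows. By the third field of the name they fell into 4 anticodons, with 7 rows for CCC, 15 for GCC, 8 for TCC and 2 for ACC. By the fourth field they fell into 15 isodecoders, tRNAs that share an anticodon but differ elsewhere in their sequence. The last field numbers the gene copies of an isodecoder.

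The counts came from 6 small RNA libraries of exosomes, the small vesicles that cells shed into their medium. Epidermal stem cells (ESC) were taken from dorsal skin of 3-week-old C57BL/6 mice in telogen, selected by fast adhesion to collagen IV, and grown in serum-free keratinocyte medium. Dermal fibroblasts (Fb) were taken from dorsal skin of 14-week-old db/db mice, which lack a working leptin receptor and become obese and diabetic, and grown with 10% FBS, then without serum for 2 days before collection. Each cell type gave 3 libraries at passage 0 to 1, described as biological replicates, and the strain field reads C57BL/6 for both. Cell type, genotype, age and medium therefore changed together and cannot be told apart. The labels do not tie a library to an animal, so a p-value here reflects only how much these libraries vary, which may be technical.

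The anticodon decides which glycine codons a tRNA reads: CCC pairs with GGG, GCC with GGC and by wobble with GGU, and TCC with GGA. Under stress, nucleases such as angiogenin cut mature tRNAs in the anticodon loop, and the resulting fragments, those of glycine tRNAs among them, are common small RNAs of serum, sperm and extracellular vesicles. The tables count reads per gene, and do not say whether a read came from a fragment or a whole tRNA. Fewer vesicles carrying a tRNA and less of it per vesicle cannot be told apart.

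RefSeq (GRCm38.p6) lists 28 nuclear glycine tRNA genes with positions, 14 of them GCC, 7 TCC, 6 CCC and 1 ACC. On chromosome 1, 9 of them lie between 171037997 and 171102827, with 5 TCC genes alternating with 4 GCC genes. Another 4, of which 3 are CCC, lie on chromosome 3 between 96351167 and 96501080. By GENCODE M21, 19 of the 28 are intergenic, 7 lie in introns and 2 touch an annotated untranslated region. RefSeq names these genes by another scheme (n-TGccc1 and so on), so no position is given here to a single isodecoder. For comparison, the glycine tRNA of the mitochondrial genome, mt-Tg, spans 68 bases at chrM:9391-9458 (GRCm38, plus strand). Its sequence is shown because it is the glycine tRNA that is encoded apart from the counted members, and the capitals mark its anticodon, TCC, at bases 31 to 33.
mt-Tg: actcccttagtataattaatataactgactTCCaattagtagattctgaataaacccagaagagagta

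The ESC libraries held 9894485 to 11149046 assigned reads each, and the Fb libraries 6914504 to 8691350. tRNA rows held 78.7% to 79.9% of them in ESC and 80.5% to 89.6% in Fb libraries. As a check of the cell labels, 3 keratinocyte miRNAs (miR-203, miR-205 and miR-200c) together made up 49073 to 62574 CPM (counts per 1e+06 miRNA reads) in ESC exosomes, against 5782 to 13161 CPM in those of Fb. The 4 fibroblast miRNAs (miR-143, miR-145a, miR-214 and miR-199a) reached 128 to 137 and 83080 to 110224 CPM. The 4 blood-cell miRNAs reached 0.761 to 303 CPM in ESC, where 2 of them had no reads, while the Fb libraries, where 1 had none, showed 405 to 11377 CPM. The 3 muscle miRNAs reached 123 to 161 and 466 to 1713 CPM. The part of these other cell types in the tRNA results was not tested.

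Glycine tRNAs received 6548668, 7426502 and 6872891 reads in ESC replicates 1 to 3, which was 66.2%, 66.6% and 66.3% of assigned reads. In Fb replicates 1 to 3 they received 4580151, 4049677 and 3198759 reads, or 57.3%, 46.6% and 46.3%. The ESC libraries lay within a percentage point of each other, while Fb replicate 1 stood above the other Fb libraries. Within the glycine reads the order of the anticodons was turned. CCC led in ESC exosomes, with 79.6%, 76.0% and 83.5% of glycine tRNA reads, and GCC led in Fb exosomes, with 63.2%, 59.4% and 62.8%. TCC and ACC were traces in both. Nearly all CCC reads were on 1 row, Gly-CCC-5, which in the Fb libraries had almost the same reads as Gly-GCC-1, as described further on. How reads matching several rows were divided is not given. The part of that step in the order of CCC and GCC was not tested.

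Gly-CCC, the reader of GGG, was the most abundant of all anticodons in ESC and the second in Fb exosomes. Its share of tRNA reads was 66.4%, 63.4% and 70.3% in ESC and 23.6%, 23.5% and 20.4% in Fb replicates 1 to 3. The lowest ESC library was far above the highest Fb library. As a share of all assigned reads it averaged 52.9% ± 2.34 in ESC against 19.1% ± 1.96 in Fb exosomes (SD, n = 3 each), which is 2.77 times as much. In a fit of all RNAs scaled to assigned reads, edgeR's quasi-likelihood test gave Gly-CCC a log2 ratio of ESC over Fb of 1.47 (SE 0.18, adjusted p = 5.68e-05), which turned to -0.44 with TMM factors, described further on. Scaled to tRNA reads alone it was 1.57 (SE 0.12, edgeR adjusted p = 2.97e-08), and in that fit 4.63 with TMM factors and 4.02 by DESeq2.

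Gly-GCC, the reader of GGC and GGU, was second in ESC and first in Fb exosomes. It held 17.0%, 20.0% and 13.9% of tRNA reads in ESC and 40.4%, 34.4% and 34.4% in Fb replicates 1 to 3, with no overlap. Of all assigned reads it averaged 13.5% ± 2.51 in ESC against 31.0% ± 4.56 in Fb exosomes (SD, n = 3 each), 2.30 times as much in Fb. Its log2 ratio was -1.20 (SE 0.21, edgeR adjusted p = 0.00150) against all assigned reads and -1.10 (SE 0.16, edgeR adjusted p = 2.78e-05) against tRNA reads. With TMM factors the sign depended on the rows fitted, with -3.05 among all RNAs (edgeR adjusted p = 0.261) and 1.84 among tRNA anticodons alone (edgeR adjusted p = 0.0105).

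Gly-TCC, which reads GGA, had only 362, 498 and 395 reads in ESC and 103, 193 and 64.9 reads in Fb replicates 1 to 3. The ESC libraries again lay above the Fb libraries, at 0.00501% ± 0.000518 against 0.00177% ± 0.000870 of tRNA reads (SD, n = 3). Ranks depend on the other anticodons too, and on that scale 63.6% of 55 had every ESC library below every Fb library. Gly-TCC ranked 13th of the anticodons in ESC and 43rd in Fb exosomes, while its mean share was 2.835 times as high in ESC. Its log2 ratio of 1.42 (SE 0.80) did not pass against all assigned reads (edgeR adjusted p = 0.429), turned to -0.78 there with TMM factors, and passed against tRNA reads at 1.50 (SE 0.56, edgeR adjusted p = 0.0228). That second call was lost without ESC replicate 1, 2 or 3 or without Fb replicate 3 (edgeR adjusted p = 0.0700, 0.0847, 0.0535 and 0.0943), and the ratio there was 4.73 with TMM factors and 4.05 by DESeq2. Without Fb replicate 1 Gly-TCC passed against all assigned reads too (1.33, edgeR adjusted p = 0.0346). In that reduced fit 80.5% of all rows and 91.5% of tRNA anticodons passed.

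Gly-ACC had 8.78, 18.2 and 6.00 reads in ESC and 51.0, 10.8 and 11.8 reads in Fb replicates 1 to 3. The groups overlapped, and only Fb replicate 1 stood apart. Its log2 ratio did not pass against all assigned reads (-1.58, SE 1.05) or tRNA reads (-1.45, SE 0.82; edgeR adjusted p = 0.540 and 0.105), but passed in the fit of all RNAs with TMM factors (-2.62, edgeR adjusted p = 0.0166) and against tRNA reads without Fb replicate 2 (-1.81, edgeR adjusted p = 0.0437). One of the ACC isodecoders, Gly-ACC-2, had 0 reads in every library, which at a floor of 3 reads allows up to 0.269 to 0.434 CPM. mt-Tg was as scarce, with 18, 15 and 10 reads in ESC and 2, 3 and 2 reads in Fb replicates 1 to 3.

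**Figure D1:**
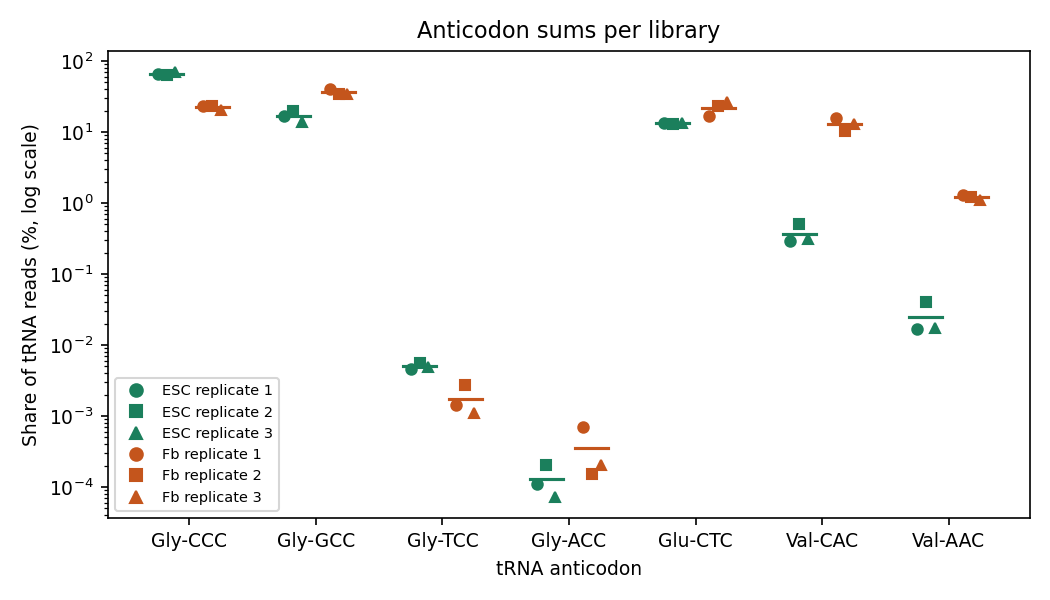
Share of tRNA reads (%, log scale) of the 4 glycine anticodons and of 3 others, 1 point per library, with a bar at each group mean (n = 3). Gly-CCC lies higher in ESC (63.4% to 70.3%) than in Fb libraries (20.4% to 23.6%), Gly-GCC the other way round, and Gly-TCC and Gly-ACC lie at the bottom. These are shares of reads, and with TMM factors the log2 ratio of Gly-CCC turned to -0.44 (all RNAs) and that of Gly-GCC to 1.84 (tRNA anticodons alone).

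Many anticodons had groups that did not overlap. Of 55 anticodons with reads, the ESC libraries lay above the Fb libraries in 9.09% and below them in 63.6% of cases by share of tRNA reads. By share of all assigned reads it was 9.09% and 65.5%. Gly-CCC and Gly-TCC belong to the first set and Gly-GCC to the second on both scales. An exact two-sided permutation test gave p = 0.1 for each of the 3, the smallest that 3 against 3 libraries allow, with an adjusted exact permutation p = 0.1375 over the 55 by share of tRNA reads. In the fit of all RNAs, 7.27% of the 2889 rows tested passed as higher in ESC and 3.53% as higher in Fb exosomes. Among its 47 tRNA anticodons the shares were 6.38% and 57.4%, and their median log2 ratio was -2.62, against 0.83 over all rows. In the fit of tRNA anticodons alone, 8.51% passed as higher in ESC and 72.3% as higher in Fb exosomes. Gly-GCC was among the many anticodons that passed as higher in Fb exosomes, and Gly-CCC among the few in the other direction. Without Fb replicate 1 the rows of the fit of all RNAs that passed went from 312 to 2608, with 73.6% of all rows passing toward ESC and 6.92% toward Fb, and 10.6% and 80.9% of the anticodons, in that fit as in the one of anticodons alone. The log2 ratios of Gly-CCC and Gly-GCC without it were 1.55 and -1.08, and both still passed (edgeR adjusted p = 4.23e-05 and 0.00159).

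These directions hold for shares of reads. With TMM factors, which scale a library by its typical RNA, the log2 ratio of Gly-CCC was -0.44 (SE 1.34) and that of Gly-GCC -3.05 (SE 1.43), and neither passed (edgeR adjusted p = 0.922 and 0.261). The TMM factors were 1.63 to 1.65 in the ESC libraries but 2.17, 0.224 and 0.465 in Fb replicates 1 to 3, so the Fb factors lay on both sides of the ESC factors. TMM moved the median over all rows from 0.83 to 0.07, and the rows passing from 210 higher in ESC and 102 in Fb to 106 and 198. Upper-quartile factors gave 133 and 216, DESeq2 159 and 317, and reads outside tRNA rows as library size 130 and 102. With tRNAs summed by isodecoder, 215 and 145 became 111 and 249 (TMM), 146 and 263 (upper quartile), 166 and 370 (DESeq2) and 137 and 151 (reads outside tRNA). Among anticodons alone, 4 and 34 became 16 and 12 (TMM) and 15 and 17 (DESeq2). Gly-CCC stayed above Gly-GCC in log2 ratio under each scaling shown in the plot of scalings. A scaling acts on both rows of a library alike, so it could hardly change their order, which is no separate support.

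**Figure D2:**
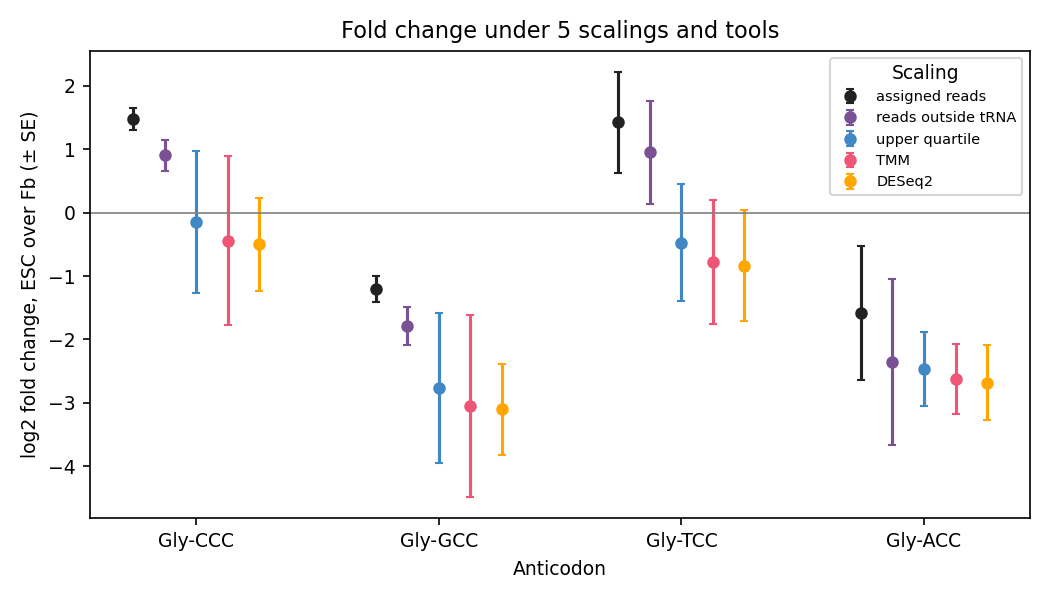
log2 ratio of each glycine anticodon (ESC over Fb, bars are SE) in the fit of all RNAs with libraries scaled to assigned reads, to reads outside tRNA rows, by upper-quartile factors, by TMM factors and by DESeq2. Gly-CCC runs from 1.47 to -0.50 and crosses 0, and Gly-GCC stays below 0, from -1.20 to -3.10.

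For comparison, 10 other anticodons whose fragments are well known from serum and vesicles were followed (Glu-CTC, Glu-TTC, Val-AAC, Val-CAC, Lys-CTT, Lys-TTT, His-GTG, Asp-GTC, iMet-CAT and SeC-TCA). In the fit of all RNAs 6 passed as higher in Fb exosomes, 3 did not pass, and 1, Glu-TTC, singled out after its value was seen, passed as higher in ESC. Their median log2 ratio was -2.54. Over all 47 tRNA anticodons of that fit, 57.4% passed as higher in Fb and 6.38% as higher in ESC, with a median of -2.62. The list as a whole was thus near the share of all anticodons. Glu-CTC, at rank 3 in both groups, held 13.4% ± 0.206 of tRNA reads for ESC against 22.2% ± 4.72 for Fb (SD, n = 3), and its log2 ratio was -0.82 (SE 0.21, edgeR adjusted p = 0.0207). Val-CAC held 0.366% ± 0.117 in ESC and 12.9% ± 2.60 in Fb exosomes (SD, n = 3), a log2 ratio of -5.25 (SE 0.35, edgeR adjusted p = 1.32e-07). Val-AAC reached -5.69 (SE 0.50, edgeR adjusted p = 2.51e-06). Whether these differ from Gly-GCC was not tested.

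The glycine reads were concentrated in 3 isodecoders. A single row, Gly-CCC-5, held at least 99.4% of the CCC reads in every library. Its reads were 5213201, 5645809 and 5736260 in ESC and 1684473, 1632330 and 1183267 in Fb replicates 1 to 3. All ESC libraries were above all Fb libraries, and the log2 ratio was 1.48 (SE 0.18, edgeR adjusted p = 6.78e-05 in the fit with tRNAs summed by isodecoder). With TMM factors it was -0.39 (SE 1.20, edgeR adjusted p = 0.918), and against reads outside tRNA rows it was 0.91 (SE 0.27, edgeR adjusted p = 0.0594).

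Gly-GCC-1 had 639993, 796844 and 671085 reads in ESC and 1669711, 1623757 and 1171071 reads in Fb replicates 1 to 3. It was higher in every Fb library, with a log2 ratio of -1.49 (SE 0.21, edgeR adjusted p = 2.72e-04) that missed the threshold with TMM factors (-3.37, SE 1.30, edgeR adjusted p = 0.148). Gly-GCC-3 had 555880, 791421 and 303803 reads in ESC and 999234, 661442 and 718891 in Fb replicates 1 to 3. Its raw reads overlapped, but scaled to assigned reads it was higher in each Fb library, with means of 52152 ± 21138 CPM for ESC against 101693 ± 24531 CPM for Fb (SD, n = 3). It did not pass (log2 ratio -0.96, SE 0.31, edgeR adjusted p = 0.0647). Leaving out ESC replicate 2 (edgeR adjusted p = 0.0133), Fb replicate 2 (0.00296) or Fb replicate 3 (0.0479) brought it past the threshold, as did other settings.

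In the Fb libraries Gly-CCC-5 and Gly-GCC-1 had almost the same number of reads. The ratio of Gly-CCC-5 to Gly-GCC-1 was 1.009, 1.005 and 1.010 in Fb replicates 1 to 3, against 8.15, 7.09 and 8.55 in ESC replicates 1 to 3. Gly-CCC-5 and Gly-GCC-1 together held 74.5%, 72.3% and 78.5% of tRNA reads in ESC and 46.8%, 46.5% and 40.3% in Fb replicates 1 to 3. How any reads matching both were divided is not given in the sources used here, and the part of that step in the Fb ratio was not tested.

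**Figure D3:**
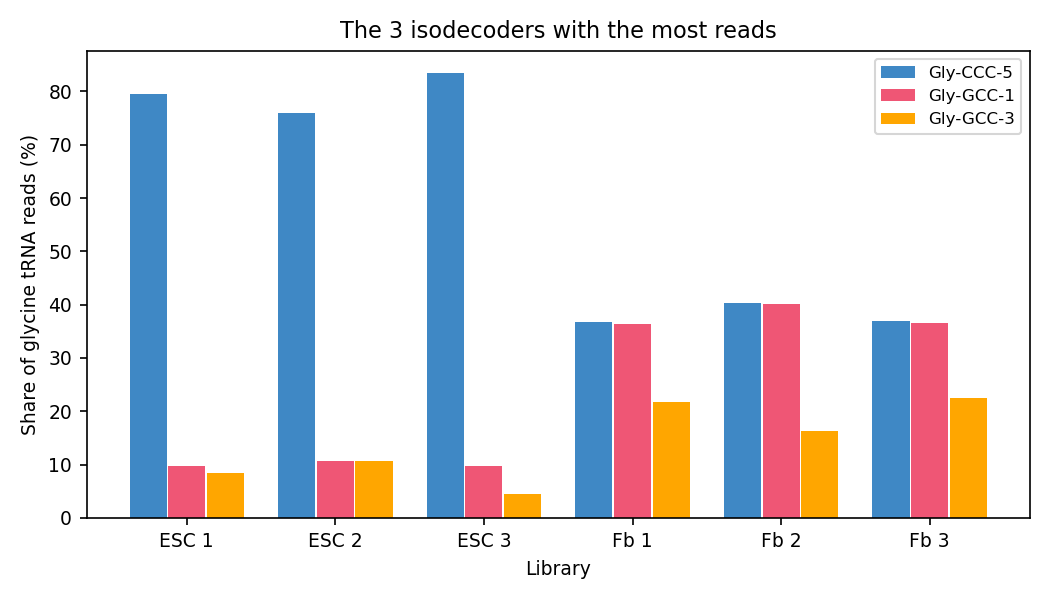
Share of glycine tRNA reads (%) of the 3 isodecoders with the most reads, by library. Gly-CCC-5 dominates the ESC libraries (76.0% to 83.5%), and in each Fb library Gly-CCC-5 and Gly-GCC-1 are level between 36.5% and 40.3%.

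Of the 15 isodecoders 12 passed the count filter. In the fit with tRNAs summed by isodecoder 1 of them was higher in ESC (Gly-CCC-5), 3 were higher in Fb (Gly-CCC-2, Gly-GCC-1 and Gly-GCC-6) and 8 did not pass. Over all 2977 rows tested there, 7.22% passed as higher in ESC and 4.87% as higher in Fb exosomes, and over its 135 tRNA isodecoders 2.96% and 51.9%. The median log2 ratio was -0.35 for the 12, -3.63 for the 135 and 0.81 for all rows. By share of tRNA reads, 5 of the 14 glycine isodecoders with reads were higher in every ESC library, 6 were higher in every Fb library and 3 overlapped. Among all 264 tRNA isodecoders with reads, 8.33% and 34.1% were separate in these directions. By share of all assigned reads the counts were 5, 7 and 2, against 8.33% and 35.6% of all isodecoders. The added member is Gly-CCC-4, whose ESC libraries and Fb replicate 1 all lie under the floor of 3 reads, so its separation cannot be read as a difference. Gly-CCC-1, counted as higher in Fb on both scales, had 2.27 to 3.39 reads in ESC and 5.89 in Fb replicate 1. Its separation from that library is therefore uncertain too.

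Gly-CCC-1 and Gly-CCC-2 had more reads in the Fb than in the ESC libraries, unlike Gly-CCC-5. Gly-CCC-2 had 75.3, 108 and 81.0 reads in ESC and 879, 2764 and 1619 reads in Fb replicates 1 to 3, a log2 ratio of -4.72 (SE 0.79, edgeR adjusted p = 0.00102). Gly-CCC-1 had 3.39, 2.27 and 2.93 reads in ESC, at about the floor of 3 reads, and 5.89, 476 and 215 reads in Fb replicates 1 to 3. It was left out of the test by the count filter. In both, Fb replicate 1 was the lowest Fb library.

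Gly-CCC-3 and Gly-CCC-4 divided the Fb libraries. Gly-CCC-3 had 1038, 1253 and 1105 reads in ESC and 2061, 56.2 and 28.4 reads in Fb replicates 1 to 3. Gly-CCC-4 had under 0.1 reads in each ESC library and in Fb replicate 1, but 6622 and 3666 reads in Fb replicates 2 and 3. Fb replicate 1 had its reads on Gly-CCC-3, as the ESC libraries did, and the other Fb libraries had theirs mostly on Gly-CCC-4. Summed, Gly-CCC-3 and Gly-CCC-4 reached 105, 112 and 107 CPM in ESC and 258, 768 and 534 CPM in Fb replicates 1 to 3, higher in every Fb library. Gly-CCC-3 had a log2 ratio of 0.27 (SE 1.15, edgeR adjusted p = 0.913), and without Fb replicate 1 one of 4.36 (SE 0.49, edgeR adjusted p = 2.76e-04). In that reduced fit 71.7% of all rows passed as higher in ESC and 8.56% as higher in Fb, and 17.8% and 65.8% of tRNA isodecoders.

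Gly-GCC-4 was the GCC isodecoder with the largest log2 ratio toward ESC. It had 96858, 81207 and 46731 reads in ESC and 0.009, 12341 and 1306 reads in Fb replicates 1 to 3, so that its share of GCC reads was 4.12% to 7.26% in ESC and at most 0.513% in Fb exosomes. The libraries did not overlap, but the log2 ratio of 3.75 (SE 1.53) did not pass (edgeR adjusted p = 0.162). It passed when any one library other than ESC replicate 3 was left out, at log2 ratios up to 6.25 (without Fb replicate 2). In Fb replicate 1 copies 4 to 7 of Gly-GCC-2 also had 0.009 reads each. How reads matching several rows were divided is not given, and the part of that step in Gly-GCC-4 was not tested.

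Gly-GCC-6 had 3363, 4699 and 3368 reads in ESC and 9384, 13440 and 6701 reads in Fb replicates 1 to 3. It passed as higher in Fb exosomes (log2 ratio -1.76, SE 0.50, edgeR adjusted p = 0.0311), a call kept without Fb replicate 1 and lost without any other single library (edgeR adjusted p = 0.0621 to 0.233), and with TMM factors (-3.81, edgeR adjusted p = 0.0813), upper-quartile factors (-3.35, edgeR adjusted p = 0.0593) or no filter (edgeR adjusted p = 0.0858). It was kept by DESeq2 and against reads outside tRNA rows. Gly-GCC-2 had 32828, 98472 and 105014 reads in ESC and 210521, 93737 and 109464 in Fb replicates 1 to 3, and did not pass (log2 ratio -1.25, SE 0.44, edgeR adjusted p = 0.0915), but did without Fb replicate 2 (-1.51, edgeR adjusted p = 0.00393). Gly-GCC-5 averaged 517 ± 34.2 CPM for ESC against 370 ± 89.8 CPM for Fb (SD, n = 3), without overlap, and did not pass (log2 ratio 0.48, SE 0.53, edgeR adjusted p = 0.709). As a share of glycine reads it was 0.0779% ± 0.00492 and 0.0734% ± 0.0102.

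**Figure D4:**
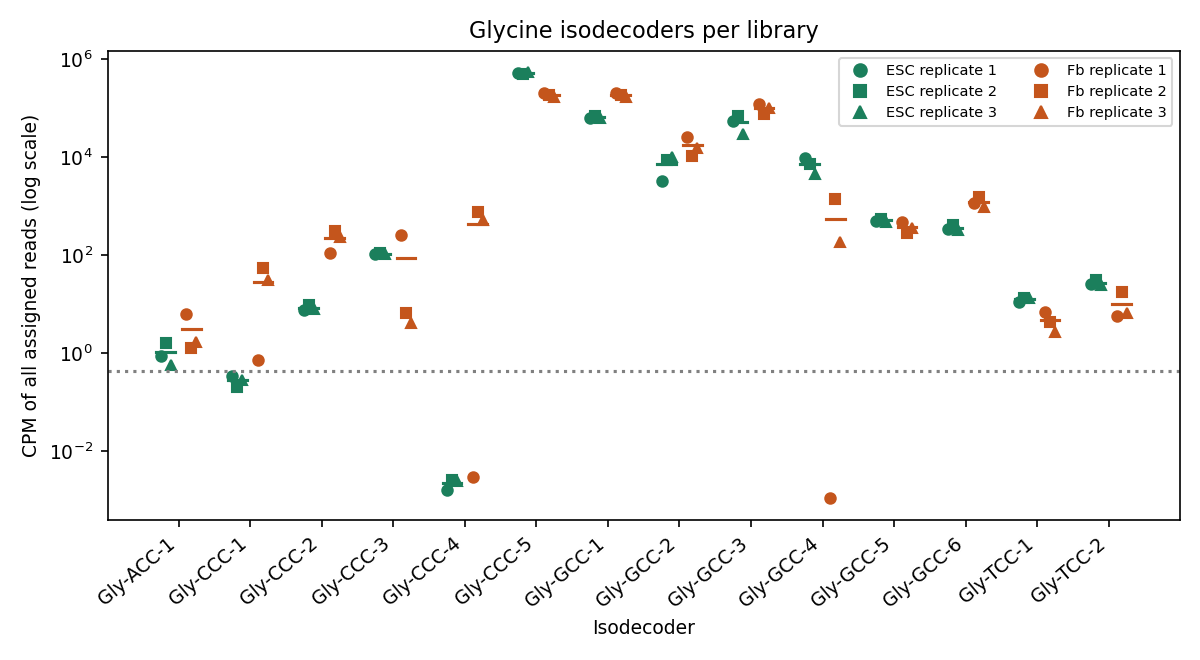
CPM of all assigned reads (log scale) of the 14 glycine isodecoders with reads, 1 point per library, with a bar at each group mean (n = 3) and a dotted line at the highest floor of 3 reads per library (0.434 CPM). On this scale Gly-CCC-5 (log2 ratio -0.39 with TMM factors) and Gly-GCC-4 lie higher in ESC, Gly-CCC-2 and Gly-GCC-1 higher in Fb libraries, and Fb replicate 1 sides with the ESC libraries for Gly-CCC-4.

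Gene copies of one isodecoder mostly had equal reads. Within the 5 isodecoders that have several copies, each copy was set beside the lowest copy in the same library, which gave 102 values. Of these 64 were equal to the lowest copy within 0.002 reads, 19 lay above it by a whole number of reads and 19 by another amount. The equal copies of Gly-GCC-2 were nearly empty, at 0.00862 to 0.0119 reads, under the floor of 3 reads. Those of Gly-TCC-1 had 1.05 to 12.1 reads. Equal or whole values made up 81.4%, against 52.3% among other tRNA isodecoders with reads on every copy. Between rows of different glycine isodecoders only 0.679% of differences were whole. The copies of Gly-CCC-1 and of Gly-CCC-2 were equal in every library. Gly-GCC-1 was counted almost entirely on its first copy, which held 99.7% to 99.8% of its reads in each library, while the remaining copies were equal to each other. In Gly-TCC-1 the seventh copy held 39.6% to 88.8%, and the remaining copies were level apart from single reads.

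Gly-GCC-2 was the exception, since the copy with the most reads changed between libraries. Copy 2 led in the ESC libraries with 70.7%, 44.1% and 93.1% of the reads of Gly-GCC-2, and in Fb replicate 2 with 53.4%. Copy 8 led in Fb replicate 1 with 86.4% and in Fb replicate 3 with 37.0%, and held at most 0.326% in the ESC libraries. Copy 6 held 33.1% and 34.0% in Fb replicates 2 and 3 but had 0.009 reads in Fb replicate 1. The Fb libraries thus disagreed on the leading copy.

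**Figure D5:**
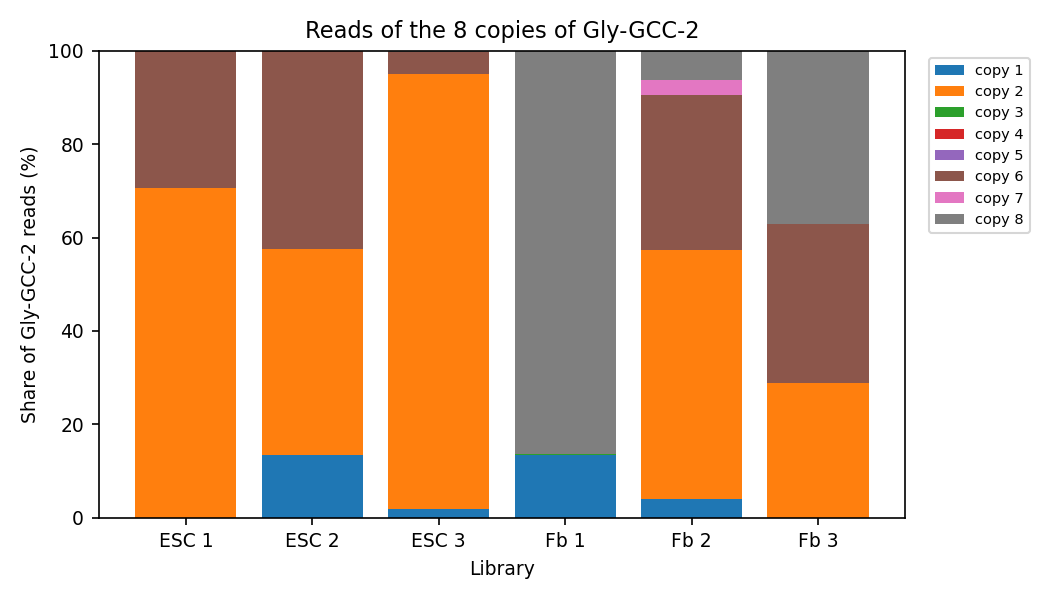
Share of the reads of Gly-GCC-2 (%) on each of its 8 gene copies, stacked by library. Copies 2 and 6 hold most reads in the ESC libraries, and copy 8 holds 86.4% in Fb replicate 1 and 37.0% in Fb replicate 3.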

How the data were processed

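Small RNA libraries were made with the CleanTag kit from exosome RNA and size-selected at 140 to 300 bp, per the labels' protocols. FastQC, cutadapt and the build GRCm38 are named in the submitters' processing notes. The sources used here do not give the aligner, counting tool, use of strand or division of multiply matching reads. The authors deposited estimated counts of reads per RNA, without normalization. Of the nonzero glycine tRNA values 93.5% to 100% were fractional in a library, so rows that share sequence are uncertain.

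tRNA rows were summed by anticodon and by isodecoder, rounded, and fitted with all other RNAs in edgeR 4.0.16 (R 4.3.3; quasi-likelihood test, group as the only term, filterByExpr keeping its minimum count at 10 and its minimum total at 15, Benjamini-Hochberg adjusted p of 0.05). Library size was the total of assigned reads without factors, or in a fit of anticodons alone the total of tRNA reads. This scaling answers how reads are shared out, and was chosen with an earlier TMM-scaled result, in which the sign of glycine tRNAs turned, already known. Shares were compared with exact permutation tests (scipy 1.17.1). Same-group libraries differed beyond sampling noise (chi-square at least 50.2 per degree of freedom). Each library was counted as a replicate, though such differences may be technical and do not show that the libraries are independent. The exact 95% binomial interval (Clopper-Pearson) of an anticodon's share of tRNA reads was at most 0.0385 percentage points to either side. Intervals and the floor of 3 reads cover counting error only. Alternatives were TMM and upper-quartile factors, reads outside tRNA as library size, DESeq2 1.42.0, no filter, only rows with at least 10 reads in the shares, glycine reads as denominator, a replicate block and leaving out each library. The edgeR and DESeq2 steps were tested on simulated counts with TMM factors in edgeR, which does not test scaling to totals. Text names every anticodon, and isodecoders with at least 0.1% of glycine reads in any library. Gly-CCC-1, Gly-CCC-2, Gly-CCC-3, Gly-GCC-5 and the ACC and TCC isodecoders fall outside that rule, as do the gene copies of isodecoders other than Gly-CCC-5, Gly-GCC-1 and Gly-GCC-3, and those named were chosen after their values were seen. The members, lists and rules were chosen with earlier results of these data known. The mitochondrial sequence and gene positions are from GENCODE M21 and RefSeq.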

Additional observations from a re-analysis of the deposited data

How the results depend on the processing

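The log2 ratios of ESC over Fb of Gly-CCC (1.40 to 1.55) and Gly-GCC (-1.34 to -1.07) kept their direction and call in the fit of all RNAs when any one library was left out. They also did with no filter and against reads outside tRNA rows. Other scalings gave other outcomes, whose cause was not tested. In the fit of all RNAs, TMM, upper-quartile factors and DESeq2 turned Gly-CCC to -0.44, -0.15 and -0.50 and Gly-TCC to -0.78, -0.47 and -0.84, and brought Gly-ACC past the threshold at -2.62, -2.47 and -2.68. Gly-GCC lost its call with TMM (-3.05) and upper-quartile factors (-2.76). Each of these 2 left 1 glycine anticodon past the threshold in place of 2. In the fit of tRNA anticodons alone, TMM and DESeq2 turned Gly-GCC to 1.84 and 1.28, both past the threshold, and Gly-ACC to 1.14 and 0.64. Among isodecoders, TMM and DESeq2 turned Gly-CCC-5 to -0.39 and -0.45, Gly-TCC-1 to -0.22 and -0.25, and Gly-TCC-2 to -0.90 and -0.96, and upper-quartile factors turned Gly-TCC-2 to -0.41. Gly-GCC-5 turned to -1.23 (TMM), -0.81 (upper-quartile), -0.14 (reads outside tRNA) and -1.28 (DESeq2), and Gly-CCC-3 to -0.69 against reads outside tRNA. Isodecoders past the threshold numbered 4 of 12, against 2 of 12 with TMM, 2 of 12 with upper-quartile factors, 8 of 14 with no filter and 8 of 14 with a replicate block. Of all tRNA isodecoders in those fits 54.8%, 59.3%, 63.7%, 35.4% and 46.5% passed, and of all rows 12.1%, 12.1%, 13.7%, 3.64% and 8.84%. Gly-GCC-3 and Gly-GCC-2 passed by DESeq2, with no filter and against reads outside tRNA, and Gly-GCC-4 with no filter. Leaving out 1 library gave 2 to 3 of 4 glycine anticodons past the threshold (all RNAs), 5 to 9 isodecoders and -0.29 to 4.36 for Gly-CCC-3. The highest counts, 3 of 4 and 9 of 14, came without Fb replicate 1. There 91.5% of tRNA anticodons and 83.6% of tRNA isodecoders passed, and 80.5% and 80.2% of all rows. Without any other single library 41.7% to 62.5% of tRNA anticodons and 31.4% to 57.8% of tRNA isodecoders passed. Of all rows 5.83% to 10.6% and 6.54% to 11.8% did. Leaving out 1 library gave 1.18 to 1.83 for Gly-TCC against all RNAs and 1.26 to 1.97 against tRNA reads. For Gly-ACC against tRNA reads it gave -1.92 to -0.46. Rows passing in the fits of all RNAs, 312 by anticodon, numbered 476 by DESeq2 and 180 to 2608 without 1 library, and 360 by isodecoder became 209 to 2682. No pairing by replicate number was seen. Correlations of deviations were -0.00281, 0.0824 and -0.0520 for equal numbers, and -0.0795 to 0.0745 for unlike numbers. Whether libraries of the same number shared a batch was not tested. The replicate block gave 1.48 for Gly-CCC and -1.21 for Gly-GCC. With the block Gly-GCC-2, Gly-GCC-3 and Gly-GCC-4 passed (edgeR adjusted p = 0.0488, 0.00873 and 1.56e-11) and Gly-GCC-6 did not (0.111). Differences in share kept their sign in each alternative run. For Gly-CCC, Gly-GCC and Gly-TCC, whose groups did not overlap, leaving out a library could not have changed it. Shares were not run with TMM factors, upper-quartile factors or DESeq2. Over all alternatives 160 log2 ratios kept direction and call, 24 reversed, 29 gained and 19 lost the threshold. Of the counts of glycine members past the threshold 20 differed from the reported count and 14 did not. Depth limits Gly-ACC, Gly-CCC-1 and mt-Tg, which had under 20 reads in several libraries.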

Other observations

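Annotated genes whose span holds a RefSeq CCC glycine tRNA gene also had reads. Gm26553, a long non-coding RNA gene at 96348627 to 96357094 on the minus strand of chromosome 3 (GRCm38), holds n-TGccc5 (96351167 to 96351237) in an intron and no other RefSeq tRNA gene. It had 8354, 13129 and 9559 reads in ESC and 143408, 420192 and 247732 reads in Fb replicates 1 to 3. Platr30, on the other strand, spans 2 RefSeq tRNA genes, n-TGccc5 among them. Its reads were 9653, 12436 and 9487 in ESC and 30237, 34792 and 40559 in Fb replicates 1 to 3. Gm26694, which spans n-TGccc7 on chromosome 17, had 1900, 2603 and 1432 reads in ESC and 5407, 62581 and 27192 reads in Fb replicates 1 to 3. Gm17575, which spans 2 RefSeq tRNA genes with n-TGccc1 among them, had 71 to 141 reads in ESC and 19 to 40 reads in Fb libraries. Gm26689, which spans n-TGccc1 on the other strand, had 1 to 10 reads in any library. Gm26553, Platr30, Gm26694 and Gm26689 thus had more raw reads in each Fb library than in any ESC library, and Gm17575 had fewer. These reads were not scaled to library depth, and those of Gm26689 were few. The share of all rows with groups separate in this way was not counted, and no isodecoder is placed at these genes. Since the use of strand and the split of shared reads are not given, reads of these genes and of the tRNA genes inside them cannot be told apart. Whether any of them shares reads with a glycine tRNA row was not tested.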
